A study of Mus musculus with 4 samples.

Results

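The cilium, flagellum and centrosome genes examined here are the 85 genes, of 11598 in the deposited table, whose symbols begin with *Dnah*, *Ift*, *Bbs*, *Cfap*, *Rsph*, *Tekt*, *Cep* or *Spag* followed by a digit. They comprise 35 *Cep*, 14 *Ift*, 10 *Cfap*, 8 *Bbs*, 7 *Dnah*, 7 *Spag*, 3 *Rsph* and 1 *Tekt* genes. The members were picked by symbol alone, a rule that uses no measured value. Earlier results of these data were known when the rule was set. Ribo-seq, which sequences the ribosome-protected fragments (RPFs) left when RNase I digests mRNA outside the ribosome, was done on FACS-sorted leptotene/zygotene spermatocytes of mice at 12 dpp (days post partum). The control libraries (2) carry the genotype label wild type and come from littermates in the study's own account, and the *Eef1g*-cKO libraries (2) come from mice in which *Stra8*-GFPCre removes exons of a floxed *Eef1g* allele in male germ cells. *Eef1g* encodes the gamma subunit of translation elongation factor 1. The mice are on a C57BL/6J background, the Cre acts from differentiating type A spermatogonia onward, and how many animals went into a library is not given in the sources used here.

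Cilia and sperm flagella are built on a microtubule axoneme that grows from a centriole. Intraflagellar transport (IFT) trains, made of the IFT-A and IFT-B complexes, carry parts along the axoneme, the BBSome moves membrane cargo on these trains, and axonemal dynein heavy chains, radial spokes, tektins and many CFAP proteins belong to the motile axoneme itself. CEP proteins organise the centriole, its appendages and the material around it. In the mouse the flagellum is assembled in spermatids, well after leptotene and zygotene, while the centrosome is in use in all these cells. The SPAG genes are named for sperm antigens and share no single function.

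The control libraries held 2479504 and 1384282 counted reads, and those of *Eef1g*-cKO 223906 and 407979, so that mean depth in control was 6.11-fold higher. The median member had 83 and 37 reads in control against 9 and 15 in *Eef1g*-cKO. The targeted gene *Eef1g* had 107 and 58 reads in control against 0 and 4 in *Eef1g*-cKO. Marker genes differed between the genotypes. All 13 listed leptotene and zygotene markers were in the table. Summed, they took 4798 and 3691 rpm (reads per 1000000 counted reads) in control against 9517 and 9084 in *Eef1g*-cKO. Singly, 11 of them had a log2 fold change above 0 and 2 below, down to −1.21. The 11 of 11 spermatogonial markers took 2659 and 3213 rpm in control against 464 and 456. Of the pachytene markers, 7 of 11 were in the table, with 882 and 696 against 1862 and 1895 rpm. Their log2 fold changes ran from −1.46 to 2.04, with 5 above 0 and 2 below. The 9 of 10 Sertoli cell markers in the table took 1282 and 322 against 281 and 201, with *Gata4* at 0 reads in both *Eef1g*-cKO libraries. Peritubular markers (3 of 5) took 125 and 91.7 against 49.1 and 56.4, Leydig markers (3 of 6) 7.26 and 11.6 against 8.93 and 4.90, and spermatid markers (5 of 12) 19.0 and 38.3 against 93.8 and 39.2, of which *Zpbp* alone had a log2 fold change above 0. No macrophage marker of 4 was in the table. In such a bulk sample, fewer cells of a type, less RNA per cell and fewer RPFs per mRNA cannot be told apart from RPF levels alone. The part of these marker differences in the results that follow was not tested.

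In control spermatocytes these genes covered a wide range of RPF levels. FPKM, the authors' reads per kilobase of gene length, scaled to the same total of counted reads, had a median of 7.37 over the 85 members in control. There were 39 members with a control mean of at least 10 FPKM, 36 between 1 and 10, and 10 below 1. *Cep85*, a centrosomal protein gene, stood highest and had the most reads of any member (982 and 567 in control, 122 and 198 in *Eef1g*-cKO). Its level was 102 and 106 FPKM in control and 141 and 126 FPKM in *Eef1g*-cKO. *Spag5*, which encodes the mitotic spindle protein astrin, followed at 70.1 and 76.2 FPKM in control against 70.1 and 57.7 in *Eef1g*-cKO. At the other end stood the axonemal dynein heavy chains, whose control means ran from 0.175 to 3.06 FPKM on genes of 12318 to 15616 bases. *Dnah8* was the highest of them, at 3.29 and 2.82 FPKM in control against 3.98 and 3.87 in *Eef1g*-cKO. So the *Cep* and *Ift* families, which are also the largest, held most of the reads. The axonemal dynein heavy chains held few, while the radial spoke gene *Rsph1* had 81.5 and 24.8 FPKM in control.

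The FPKM scale divides by the whole gene length, while footprints lie mostly in the coding part. The longest coding sequence in GENCODE release M21, counted without the stop codon, covered a median of 78.6% of the deposited length over the 84 protein-coding members, from 27.1% to 111%. The order of levels therefore changed for some genes when reads were set against coding length. *Ift46*, a subunit of IFT-B, ranked 23 among the members in control by FPKM and 6 per coding kilobase. *Bbs1* moved from rank 50 to rank 35. *Cep85*, *Spag7* and *Spag5* led, with 176, 119 and 80.0 reads per coding kilobase on the rpm scale.

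Summed over all 85 members, RPF abundance came to 4577 and 3936 rpm in control and to 5525 and 5483 in *Eef1g*-cKO. The *Ift* genes had 989 and 957 rpm in control against 1434 and 1365, so that the genotypes did not overlap. For the *Bbs* genes the sums were 187 and 194 in control against 357 and 297. The *Cfap* genes had 186 and 164 against 264 and 314, and the *Cep* genes 2450 and 1970 against 2778 and 2772. The *Spag* genes overlapped, with 527 and 509 in control against 473 and 549 in *Eef1g*-cKO, and so did the *Rsph* genes, where control replicate 1 stood alone at 102 and the other libraries lay between 34.7 and 58.1. These sums were not tested.

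**Figure D1:**
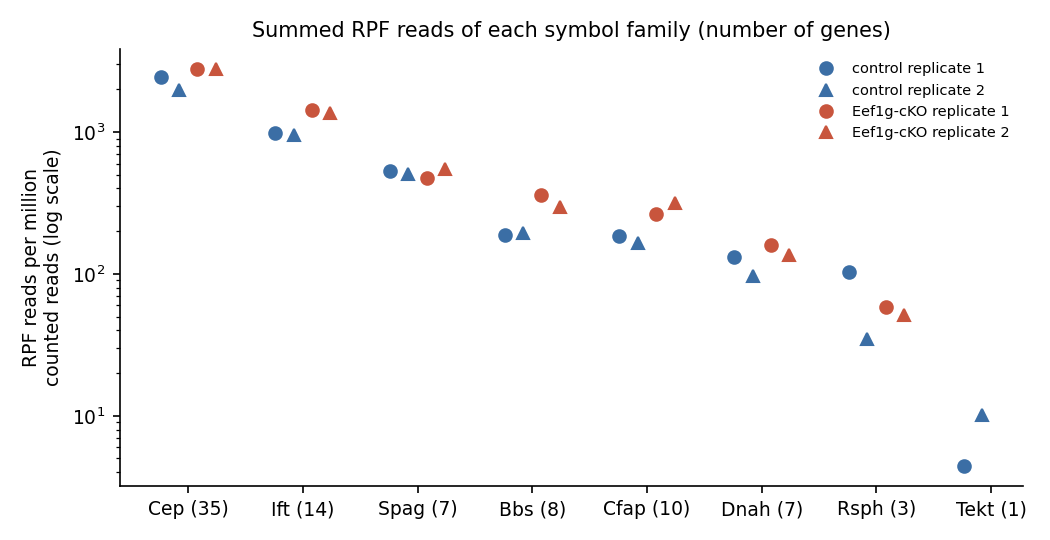
Summed RPF abundance in rpm (log scale) of each symbol family in the 4 libraries, with the number of genes in parentheses; blue marks are control and red marks *Eef1g*-cKO, circles replicate 1 and triangles replicate 2. Both *Eef1g*-cKO libraries lie above both control libraries for *Cep*, *Ift*, *Bbs*, *Cfap* and *Dnah* and not for *Spag* or *Rsph*. For *Dnah* the gap is narrow, with 131 and 96.8 rpm in control against 161 and 135. The single gene *Dnah5* gives 14 of the 36 *Dnah* reads in *Eef1g*-cKO replicate 1. The *Tekt* gene has no read in *Eef1g*-cKO and so no red mark.

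RPF abundance was compared gene by gene with limma on log2(FPKM + 1) across the 10475 genes whose mean over the libraries was 1 FPKM or more, a scale that understates the change of low genes. Calls given without a tool are those of limma. Of the 85 members, 79 passed this filter. Their log2 fold changes in *Eef1g*-cKO against control had a median of 0.31, against −0.23 for all genes tested, and 53 of the 79 were above 0, against 40.9% of all genes. In 34 members the lower *Eef1g*-cKO library exceeded the higher control library, or 43.0% against a background of 24.6%, and in 13 the reverse held, or 16.5% against 37.7%. With an unadjusted p under 0.05 and a change beyond 1 on the log2 scale, 9 members were increased (11.4%, against 7.32% of all genes tested) and 4 were decreased (5.06%, against 16.3%). By adjusted p, 5 members were increased, against a background of 2.87%, and limma called 0 decreased, against 4.97%. Among the members with an adjusted call were *Ift20*, *Ift80*, *Ift81* and *Cfap57*. With 2 libraries against 2, the smallest p that an exact permutation test (two-sided) can give for a gene is 0.333, so these calls rest on the spread shared across genes.

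The count of calls depended on single libraries. The share of all genes called without a library is not given here, so these counts do not set the members apart from other genes. Without control replicate 1 or 2, the members' median log2 fold change was 0.39 and 0.23, against −0.23 and −0.20 for all genes. Without *Eef1g*-cKO replicate 1 or 2 it was 0.32 and 0.23, against −0.22 and −0.18. Unadjusted increases numbered 6 without control replicate 2 and 15 without *Eef1g*-cKO replicate 2, and decreases 1 without control replicate 1, 2 without control replicate 2 and 7 without either *Eef1g*-cKO library. The adjusted increases went to 0 without either control library, to 3 without *Eef1g*-cKO replicate 1 and to 11 without *Eef1g*-cKO replicate 2. The count model edgeR, run on the reads recovered from the deposited normalized counts, called 10 of 68 members increased by adjusted p (against 8.75% of the genes it tested) and 0 decreased (against 11.2%). By unadjusted p it called 10 increased (background 11.0%) and 2 decreased (background 15.5%). All 9 unadjusted increases of limma were among the 10 adjusted ones of edgeR. DESeq2 called 7 members increased (background 5.94%) and 0 decreased (background 5.34%) by adjusted p, and 10 increased (background 6.6%) and 0 decreased (background 8.26%) by unadjusted p.

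**Figure D2:**
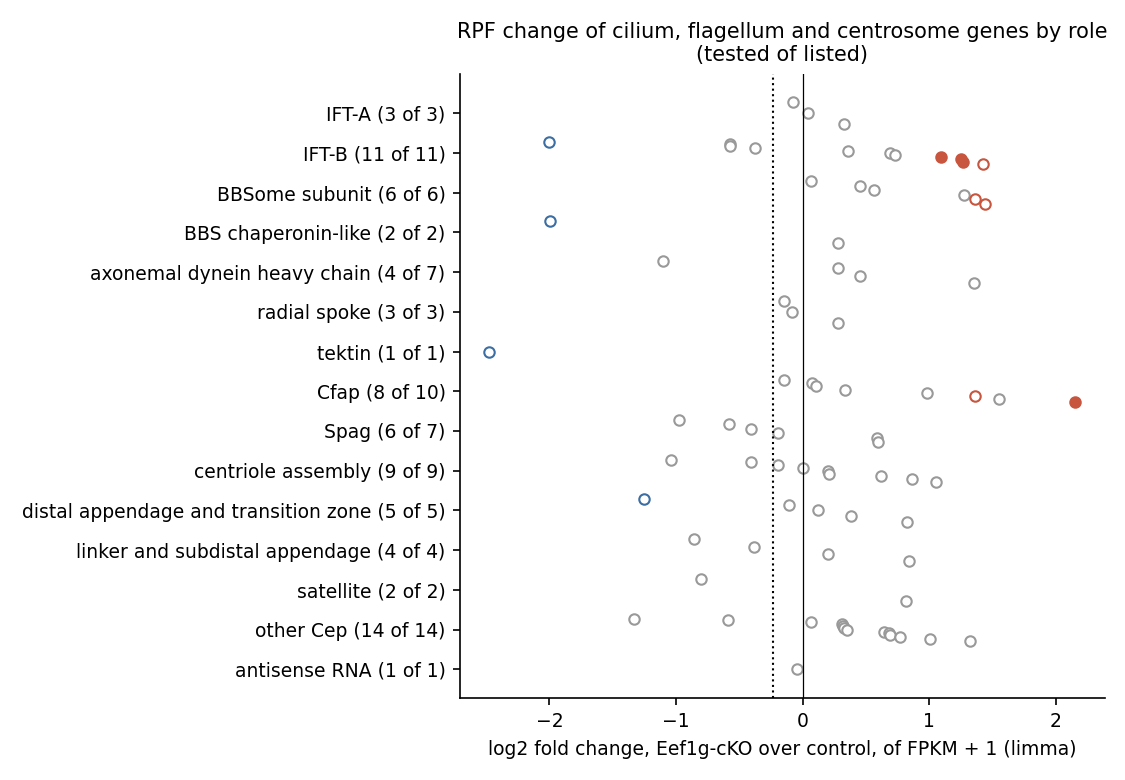
Log2 fold change of *Eef1g*-cKO over control on the FPKM + 1 scale (limma) for 78 of the 79 members tested, in rows by role with the number tested of the number listed. Red marks are increased and blue marks decreased by unadjusted p and a change beyond 1, filled marks also by adjusted p, and the dotted line is the median of all genes tested (−0.23); the filled marks are 3 IFT-B genes and *Cfap57*.

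Many ciliary genes are known to be switched on by RFX factors, which bind the X-box. The cores GTTGCC and GTTGCT were searched on both strands of the RefSeq promoter windows, 250 bases before to 50 after each gene start in GRCm38.p6, together with the full palindromic X-box, which the first core can overlap. Windows were given for 74 of the 85 members (84 windows). GTTGCC stood in 28 of them (33.3%), against 12.5% of all 32851 windows, and GTTGCT in 25 (29.8%), against 14.8%. The palindrome was in 0 of the 84 and in 0.128% of all. Tested members with either core had a median log2 fold change of 0.32 (36 genes, 4 increased and 3 decreased by unadjusted p) and those without had 0.24 (32 genes, 1 and 1). Of all genes tested, 7.32% were increased and 16.3% decreased by unadjusted p. Whether members with and without a core differ was not tested. The 3 decreased members with a core were *Cep89*, *Ift27* and *Tekt2*, whose sites are not printed. The sites below are those of the 4 increased members that hold a core. The core is in capitals with 6 bases on each side, read 5′ to 3′ on the strand given.
*Ift57*, chr16:49699228-49699245, plus strand: cctgcgGTTGCCtggtaa
*Ift57*, chr16:49699201-49699218, plus strand: ggtctgGTTGCCgtggtg
*Bbs7*, chr3:36613499-36613516, minus strand: gccccgGTTGCCttggaa
*Bbs7*, chr3:36613378-36613395, minus strand: gcccgcGTTGCTgggcgc
*Bbs1*, chr19:4906615-4906632, minus strand: gagctgGTTGCCaaggcg
*Cfap57*, chr4:118620777-118620794, minus strand: tttctcGTTGCTatagga
In *Ift57* and in the first *Bbs7* site the core lies before the gene start, in *Bbs1* just after it, and in *Cfap57* across it. A match of this kind is a description of the letters in the window, and the binding of a factor was not measured.

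The IFT-B complex held 4 of the 9 increases. All 11 of its genes in the list were tested, with a median log2 fold change of 0.69. Of these, 7 were above 0, against 40.9% of all genes tested. By unadjusted p 4 were increased (background 7.32%) and 1 decreased (background 16.3%), and by adjusted p 3 were increased (background 2.87%). *Ift81* binds tubulin together with *Ift74*, and had 37.1 and 33.3 FPKM in control (271 and 136 reads) and 95.4 and 75.6 in *Eef1g*-cKO (63 and 91 reads). Each *Eef1g*-cKO library exceeded each control library, and the log2 fold change was 1.25 (standard error, SE, 0.23, limma adjusted p = 0.0389; edgeR adjusted p = 6.06e-04). *Ift80* had 26.9 and 27.4 FPKM in control against 61.2 and 56.9 in *Eef1g*-cKO, with little spread within a genotype. Its log2 fold change was 1.09 (SE 0.22, limma adjusted p = 0.0455; edgeR adjusted p = 0.00123). *Ift20*, a small subunit also known at the Golgi, rose from 33.2 and 33.3 FPKM to 83.5 and 79.5. The change was 1.27 on the log2 scale (SE 0.21, limma adjusted p = 0.0350; edgeR adjusted p = 0.0175).

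*Ift57*, a peripheral subunit of the same complex, had 26 and 16 reads in control against 8 and 13 in *Eef1g*-cKO. This amounted to 4.13 and 4.55 FPKM against 14.1 and 12.5, a log2 fold change of 1.42 that was called by unadjusted p (limma adjusted p = 0.0663; edgeR adjusted p = 0.0386). Outside the rule for named genes, *Ift88* and *Ift74* lay on the same side, with the genotypes not overlapping and log2 fold changes of 0.73 and 0.69 that did not reach the fold threshold. The complex was not uniform. *Ift172* had 19.6 and 24.7 FPKM in control against 14.9 and 14.1 in *Eef1g*-cKO, and *Ift46* 22.0 and 18.0 against 14.7 and 15.4. Neither passed the test (log2 fold changes −0.58 and −0.38, limma adjusted p = 0.235 and 0.405). *Ift27*, a small GTPase of the complex, was called decreased by unadjusted p on 10 and 14 reads in control against 0 and 1 in *Eef1g*-cKO (log2 fold change −2.00, limma adjusted p = 0.149). The ratio of its read shares, 0.255 with an exact 95% counting interval from 0.00620 to 1.56, covers no change.

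The 3 *Ift* genes of the IFT-A complex showed no call. By unadjusted p, 7.32% of all genes tested were increased and 16.3% decreased, so 3 genes without a call do not stand out. *Ift122*, with the most reads of any *Ift* gene, had 50.2 and 46.2 FPKM in control against 54.9 and 66.9 in *Eef1g*-cKO, a log2 fold change of 0.33 (SE 0.22, limma adjusted p = 0.364). *Ift140* had 18.8 and 17.2 FPKM against 16.2 and 21.1, and *Ift43* had 54.8 and 64.3 against 49.7 and 63.6, so that the genotypes overlapped in both. Whether the IFT-A and IFT-B genes differ in their response was not tested. Subunits whose symbols fall outside the list filled out the picture. Of all 6 IFT-A genes, 5 had a log2 fold change above 0, against 40.9% of all genes tested. By limma 0 were called at either p, while edgeR called *Wdr35* increased (edgeR adjusted p = 0.00418). Of 16 IFT-B genes, 15 were tested and 6 were increased by unadjusted p, against 7.32% of all genes tested. The added ones were *Cluap1* (log2 fold change 1.03, limma adjusted p = 0.0501) and *Ttc26* (1.80, limma adjusted p = 0.0806). Among the 8 motor genes of IFT, *Dync2li1*, the light intermediate chain of dynein-2, was increased, and *Kif17*, a kinesin, was decreased by unadjusted p with 64 and 43 reads in control against 0 and 2 in *Eef1g*-cKO.

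**Figure D3:**
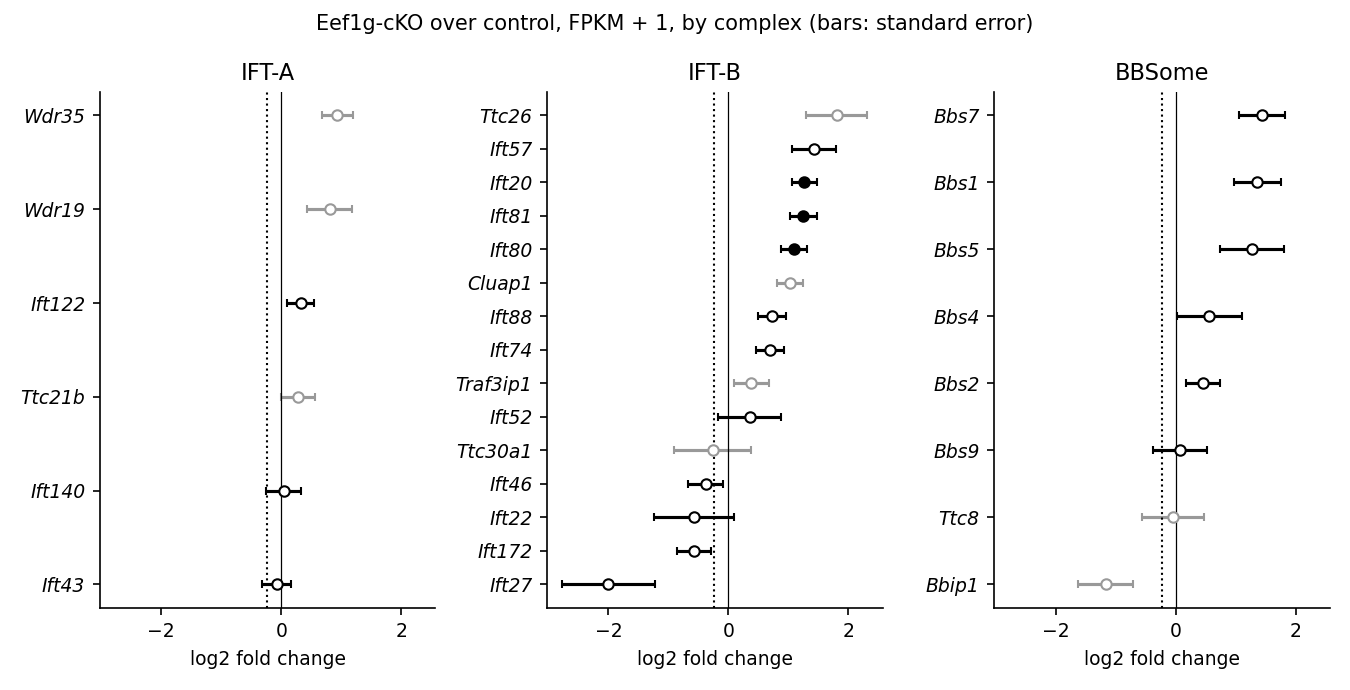
Log2 fold change of *Eef1g*-cKO over control on the FPKM + 1 scale with its SE (limma), for the tested subunits of IFT-A, IFT-B and the BBSome; black marks are genes of the list, grey marks subunits with other symbols, filled marks passed the adjusted p, and the dotted line is the median of all genes tested. IFT-B runs from −2.00 for *Ift27* to 1.80 for *Ttc26*, and the 6 IFT-A subunits from −0.08 to 0.94.

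All 6 BBSome genes with a *Bbs* symbol had a log2 fold change above 0 (background 40.9%), with a median of 0.92. By unadjusted p 2 were increased (background 7.32%), and by adjusted p 0 (background 2.87%). *Bbs7* had 10.1 and 8.90 FPKM in control against 37.8 and 19.8 in *Eef1g*-cKO, where replicate 1 was the higher and both stood above control. Its log2 fold change was 1.44 (SE 0.39, limma adjusted p = 0.0730; edgeR adjusted p = 0.00955). *Bbs1* had 6.49 and 4.00 FPKM against 16.0 and 13.6, a change of 1.36 (SE 0.39, limma adjusted p = 0.0822; edgeR adjusted p = 0.00863). *Bbs2*, the BBSome gene with the highest level, had 25.6 and 18.4 FPKM against 30.3 and 29.9, and did not pass the test (log2 fold change 0.46, limma adjusted p = 0.312). *Bbs5* rested on 9 and 6 reads in control against 4 and 3 in *Eef1g*-cKO. The small BBSome subunit *Bbip1*, which has another symbol, went the other way, with a log2 fold change of −1.16 that was called by unadjusted p (limma adjusted p = 0.155), and *Ttc8* had −0.05. With both, the median of the 8 subunits was 0.51.

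*Bbs10* and *Bbs12* encode chaperonin-like proteins that help the BBSome assemble. *Bbs10* had 21 and 11 reads in control, or 3.08 and 2.89 FPKM, and 0 in both *Eef1g*-cKO libraries. It was called decreased by unadjusted p (limma adjusted p = 0.0639). A count of 0 still allows up to 3 reads, which on this gene are 4.87 and 2.67 FPKM in the *Eef1g*-cKO libraries, so no fold change can be given. The share of reads in *Eef1g*-cKO was at most 0.747 of that in control by the exact 95% counting interval. These intervals and floors cover counting error alone, as copies made by PCR are not independent molecules. *Bbs12*, with 13 and 7 reads against 1 and 4, was not called.

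**Figure D4:**
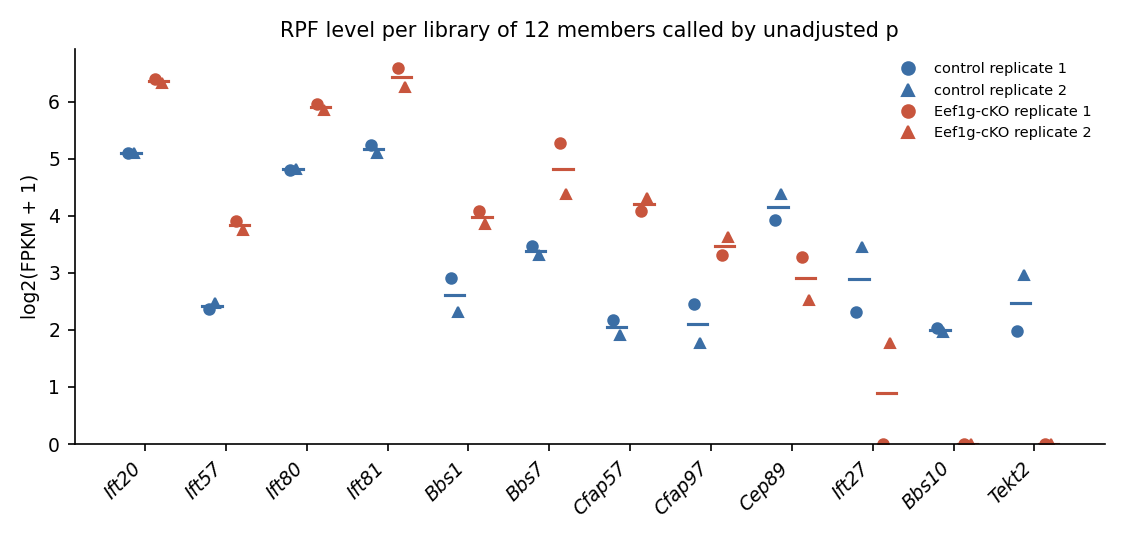
RPF level, log2(FPKM + 1), in each library of 12 of the 13 members called by unadjusted p; blue is control and red *Eef1g*-cKO, circles are replicate 1, triangles replicate 2, and bars the mean of the 2. In the 8 increased members drawn, from *Ift20* to *Cfap97*, both red marks lie above both blue marks, and *Bbs10* and *Tekt2* have no read in either *Eef1g*-cKO library.

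Among the *Cfap* genes, *Cfap57* had the largest increase. It encodes a protein of the inner-arm dynein system of the axoneme, and had 34 and 15 reads in control against 14 and 30 in *Eef1g*-cKO, where the libraries are several times shallower. The levels were 3.52 and 2.78 FPKM in control against 16.1 and 18.9 in *Eef1g*-cKO. The log2 fold change was 2.15 (SE 0.37, limma adjusted p = 0.0365; edgeR adjusted p = 5.32e-04). *Cfap97*, named with the cilium- and flagellum-associated proteins, had 4.46 and 2.40 FPKM against 8.89 and 11.4, and was increased by unadjusted p (log2 fold change 1.36, SE 0.45, limma adjusted p = 0.109; edgeR adjusted p = 0.0259). *Cfap36*, with the highest level of the family, had 47.9 and 45.1 FPKM against 44.0 and 54.7 and did not pass the test. Of the 8 *Cfap* genes tested, 7 had a log2 fold change above 0 (background 40.9%). By limma 0 were decreased by unadjusted p (background 16.3%) or adjusted p (background 4.97%). *Cfap44* and *Cfap46* fell below the filter, with 8 and 1 and with 15 and 4 reads in control and at most 1 read in an *Eef1g*-cKO library.

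The dynein heavy chains, the motors of the axoneme, had few reads for their length. *Dnah5*, an outer-arm chain that was named after its values were seen, had 10 and 2 reads in control against 14 and 5 in the much shallower *Eef1g*-cKO libraries. That was 0.258 and 0.0925 FPKM against 4.00 and 0.785, so the added 1 FPKM holds its limma change to 1.35 (adjusted p = 0.232). On the reads themselves the share in *Eef1g*-cKO was 9.68 times that in control, with an exact 95% counting interval from 4.46 to 21.9, and edgeR called it increased (adjusted p = 0.00455). *Dnah1*, an inner-arm chain, had 78 and 38 reads in control against 0 and 7 in *Eef1g*-cKO, and was not called (log2 fold change −1.10, limma adjusted p = 0.271; edgeR adjusted p = 0.153). *Dnah8* did not pass the test (log2 fold change 0.28, limma adjusted p = 0.694), nor did *Dnah7b*, whose reads may be shared with its close copies. *Dnah2*, *Dnah10* and *Dnah17* fell below the filter of 1 FPKM.

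*Tekt2* encodes a tektin, a filament protein inside the doublet microtubules of the flagellum. It had 11 and 14 reads in control and 0 in both *Eef1g*-cKO libraries, was called decreased by unadjusted p (limma adjusted p = 0.0550), and had a share of reads in *Eef1g*-cKO of at most 0.972 of that in control. The 3 radial spoke genes showed no call, where by unadjusted p 7.32% of all genes tested were increased and 16.3% decreased. *Rsph1*, a radial spoke head protein gene, had 81.5 and 24.8 FPKM in control against 46.1 and 35.8 in *Eef1g*-cKO. Here the control libraries lay on either side of both *Eef1g*-cKO libraries, and the log2 fold change was −0.15 with an SE of 0.55, or 0.69 without control replicate 1. *Rsph9* had 14 and 0 reads in control against 0 and 2 in *Eef1g*-cKO, and *Rsph3b*, which has a close paralog, had 5 and 8 against 1 and 2.

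Of the 35 *Cep* genes, all were tested and their median log2 fold change was 0.31. By unadjusted p limma called 1 of the 35 decreased, against 16.3% of all genes tested. This was *Cep89*, a distal appendage gene, with 90 and 71 reads in control against 5 and 5 in *Eef1g*-cKO. Its levels were 14.1 and 19.98 FPKM against 8.70 and 4.77, a log2 fold change of −1.25 (SE 0.42, limma adjusted p = 0.110; edgeR adjusted p = 0.0674). The other distal appendage genes, *Cep83* and *Cep164*, had overlapping genotypes.

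*Cep170b*, outside the rule for named genes, had the lowest log2 fold change of the family (−1.33, limma adjusted p = 0.199) on 55 and 19 reads in control against 0 and 3, and was called decreased by unadjusted p in edgeR but not in limma. Of 9 centriole assembly genes, 6 had a log2 fold change above 0 (background 40.9%). By limma 0 were called at either p, where unadjusted p called 7.32% of all genes tested increased and 16.3% decreased. *Cep152* and *Cep63* form a scaffold for the new centriole, and their values lay on opposite sides, with 7.76 and 3.88 FPKM in control against 1.55 and 2.97 for *Cep152* and 39.8 and 26.3 against 51.4 and 49.1 for *Cep63*. Neither passed the test (limma adjusted p = 0.246 and 0.195). *Cep250* and *Cep68* belong to the linker that ties centrioles together. Their levels were 19.2 and 15.4 FPKM in control against 10.6 and 7.68 for *Cep250*, and 10.8 and 16.5 against 24.1 and 25.5 for *Cep68*. Both stayed within the fold threshold in limma (−0.85 and 0.84), with edgeR adjusted p = 0.0365 and 0.0253. In edgeR, 5 members in all had an adjusted p under 0.05 with a smaller rise (*Cep55*, *Cep68*, *Cep72*, *Ift88* and *Spag9*) and 1 with a smaller fall (*Cep250*); these were named after their values were seen. *Cep85* had a log2 fold change of 0.35 (SE 0.20, limma adjusted p = 0.275). *Cep83os* is the one member that is a long non-coding RNA, and lies beside *Cep83* without overlapping it in RefSeq. It had 22 and 15 reads in control against 1 and 7 in *Eef1g*-cKO.

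No *Spag* gene was called, and their median log2 fold change was −0.30 over the 6 tested, against −0.23 for all genes tested. By unadjusted p, 7.32% of all genes tested were increased and 16.3% decreased. Among so few genes, the absence of a call does not set them apart. *Spag7* had 77.1 and 62.8 FPKM in control against 38.5 and 31.7 in *Eef1g*-cKO, the groups well apart, and missed the fold threshold narrowly (log2 fold change −0.98, SE 0.24, limma adjusted p = 0.0617). It was named after its values were seen. *Spag5* had a log2 fold change of −0.20 (SE 0.22, limma adjusted p = 0.570). *Spag16* and *Spag17* encode proteins of the central pair of the axoneme. They had few reads, 17 and 4 in control against 1 and 7 for *Spag16*, and 14 and 1 against 1 and 0 for *Spag17*, which fell below the filter.

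Of the 4 decreases, 3 (*Ift27*, *Bbs10* and *Tekt2*) had no more than 3 reads in either *Eef1g*-cKO library, as had 12 of the 85 members (14.1%) and 32.7% of all genes. *Cep89*, with 5 reads in each, was the exception.

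Genes of the same pathways with other symbols were followed as 2 lists. Of 86 further cilium and sperm tail genes, 67 were in the table and 64 were tested. Their median log2 fold change was 0.55, and by unadjusted p 13 were increased and 5 decreased in limma, where the shares of all genes tested are 7.32% and 16.3%. By adjusted p limma called 5 increased (background 2.87%) and 0 decreased (background 4.97%). Of the 48 genes edgeR tested, 11 were increased (background 8.75%) and 2 decreased (*Kif17* and *Dnaaf2*, background 11.2%) by adjusted p. The 5 of limma were *Dync2li1*, *Iqcb1*, *Arl13b*, *Tmem67* and *B9d1*, the last 4 being genes of the ciliary membrane and the transition zone at its base. *Iqcb1* had 914 and 440 reads in control against 221 and 391 in *Eef1g*-cKO (limma adjusted p = 0.0289), and 163 and 140 FPKM against 435 and 423. *Dync2li1* had 42 and 18 against 18 and 30 reads (log2 fold change 2.27, SE 0.27, limma adjusted p = 0.0248). Of 51 further centrosome genes, 49 were in the table and 48 were tested, with a median of −0.0026. Here limma called 2 increased and 8 of 48 decreased by unadjusted p, a decreased share near the 16.3% of all genes tested. By adjusted p limma called 0 increased (background 2.87%) and 4 of 48 decreased (background 4.97%). Of the 46 genes edgeR tested, 2 were increased (*Nedd1* and *Sclt1*, background 8.75%) and 7 decreased (background 11.2%) by adjusted p. The 4 of limma were *Tubg1*, the gamma-tubulin gene (103 and 126 against 1 and 5 reads), *Cenpj*, a centriole length gene (315 and 158 against 7 and 14), *Haus3*, a subunit of augmin (162 and 80 against 3 and 8), and *Plk1*, a mitotic kinase (472 and 418 against 21 and 39). The difference between the lists was not tested.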

How the data were processed

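Ribo-seq of 4 libraries, 2 control and 2 *Eef1g*-cKO, gave 1 deposited table. Per the labels, cutadapt, Bowtie and STAR and the builds mm10 and hg38 were named without a role; the paper adds adapter trimming, quality filtering, alignment and RiboMiner, and the read counter, annotation and differential test are not given in the sources used here. The authors deposited FPKM (per kilobase of gene length and 1000000 counted reads) and normalized counts, a signal made by dividing counts by a size factor per library. The latter were whole multiples of 1 step in 100% of values (tolerance 0.001 reads), which recovered the reads. The authors' own fold changes and p-values also stand in the table and were not used.

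RPF abundance was tested with limma 3.58.1 (R 4.3.3) on log2(FPKM + 1), trended prior variance, in genes averaging 1 FPKM or more, and called at p under 0.05 and a log2 fold change beyond 1, unadjusted or with Benjamini-Hochberg adjustment over all genes tested. Since the deposited table holds no raw counts, edgeR 4.0.16 (quasi-likelihood test with TMM and filterByExpr) and DESeq2 1.42.0 on the recovered reads were alternatives, beside other pseudocounts, filters, scalings, thinning, a replicate block and leaving out each library. The tests were also run on simulated data of these depths. There limma called more unchanged genes decreased than increased, and recovered a minority of the changed genes by adjusted p. Replicates differed beyond sampling noise (chi-square per degree of freedom 13.2 in control and 1.96 in *Eef1g*-cKO) and counted as separate samples. The labels call them independent biological replicates.

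Named genes were the members called by adjusted p, the 10 largest increases and decreases by unadjusted p among members with at least 20 reads, the highest and the most-read member of each family, and up to 5 adjusted calls per direction of the 2 other lists. All other genes named lie outside this rule, were chosen after their values were seen and fill out a complex or family. The result of 1 called member is not reported here, though the counts include it. Members, lists and roles were chosen with earlier results of these data known. Gene symbols of all 85 members matched RefSeq of GRCm38.p6; sequences are from RefSeq. Analyses used Python 3.11.15, scipy 1.17.1 and numpy 2.4.6.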

Additional observations from a re-analysis of the deposited data

How the results depend on the processing

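The count of members increased by unadjusted p (9) was 5 with a pseudocount of 5 FPKM and 14 with the libraries centred on their medians. The count decreased by unadjusted p (4) was 0 with a pseudocount of 5 FPKM and in DESeq2, 1 with a minimum mean of 5 FPKM and with the libraries thinned to equal reads, and 2 in edgeR. The count increased by adjusted p (5) was 0 with a pseudocount of 0.1 FPKM, with a prior variance without a trend and after thinning, 3 without a filter and 10 in edgeR, and the count decreased by adjusted p (0) was 1 without a filter. The members' median log2 fold change (0.31) was 0.17 with a pseudocount of 5 FPKM, 0.52 after centring and 0.42 in edgeR, and it was above 0 in every alternative run; centring moved the median of all genes from −0.23 to −0.02. The cause of these differences was not tested. Outside edgeR and DESeq2, the share of all genes called in each alternative run, the replicate block included, is not given here. The counts therefore show how the calls move with the setting, and not how members compare with other genes. Leaving out each library in turn gave 6 to 15 unadjusted increases, 1 to 7 unadjusted decreases, 0 to 11 adjusted increases, 0 to 3 adjusted decreases and a median from 0.23 to 0.39; a genotype left with 1 library is assumed to vary like the other. *Cfap57*, *Ift20* and *Ift81* were called by unadjusted p in all 15 settings, the reported one included, and *Ift80* in 13, while *Cep89* was called in 9 of 15 and *Ift27* in 5 of the 13 that tested it. Sign changes were found in 4 named members that were not called. These were *Cfap36* (−0.21 after thinning, −0.078 without *Eef1g*-cKO replicate 2), *Dnah8* (−0.043 after thinning), *Spag5* (0.017 after centring) and *Rsph1* (0.065 after centring, from −0.99 without control replicate 2 to 0.69 without control replicate 1, 0.03 without *Eef1g*-cKO replicate 2). The depth of the *Eef1g*-cKO libraries limits what can be said of decreases, as 3 reads on a gene of 1 kb are 13.4 and 7.35 FPKM there.

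With the replicate number as a block, 10 members were increased and 4 decreased by unadjusted p and 6 and 1 by adjusted p, with a median of 0.31. The difference between replicates correlated at −0.008 between the genotypes across 10475 genes, which are not independent replicates. The *Eef1g*-cKO libraries held a median of 5 and 8 reads per gene, and counting noise at that depth weakens such a correlation. It therefore cannot tell whether the number pairs the libraries.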
